A study of Mus musculus with 12 samples.

Results

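The genes of cholesterol synthesis and other targets of the transcription factor SREBP2 were followed in liver RNA of 12 mice. The 28 members were chosen by gene symbol, as genes of the pathway, from the 23997 genes of the table, and all 28 were found there. They were 4 regulators (Srebf2, Scap, Insig1 and Insig2), 8 enzymes that lead to mevalonate and the prenyl diphosphates, 11 enzymes that make squalene and turn it into sterols, and 5 genes of cholesterol uptake, transport and esterification. The mice were wild type C57BL/6 males, 3 in each group. They were fed a high-fat high-sugar diet with curcumin mixed into it (HFHSD+CUR), the same diet without curcumin (HFHSD), a normal control diet with curcumin (NCD+CUR), or the normal control diet alone (NCD). The sample labels gave an age of 107 weeks for NCD+CUR replicate 3 and NCD replicate 3 and 99 weeks for the other 10 mice, whereas the series text gave 83 to 91 weeks. RNA came from the left lateral lobe and was sequenced after poly(A) selection. Levels are given in FPKM, which scale fragments to transcript length and to the mapped fragments of the library, and rose, fell and changed are written of genes with an adjusted p under 0.1 in limma (Benjamini-Hochberg, over the 10545 genes tested). Fold changes are on the scale of log2(FPKM + 0.1), on which changes of low genes are understated. Nothing in the labels says more of how the replicates were taken, so the p-values measure the spread between these samples. In bulk RNA, fewer cells of a type and less RNA per cell cannot be told apart.

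Cholesterol is made in the endoplasmic reticulum from acetyl-CoA through mevalonate, farnesyl diphosphate, squalene and lanosterol, and the liver is a major site of it. SREBP2, encoded by Srebf2, is made as a membrane-bound precursor. When sterols are low, SCAP carries it to the Golgi, where it is cleaved, and the freed part enters the nucleus and raises transcription of the genes of cholesterol synthesis and of Srebf2 itself. When sterols are high, the INSIG proteins hold SCAP in the endoplasmic reticulum. Curcumin is a polyphenol of the turmeric plant.

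SREBP2 binds sterol regulatory elements, short sequences that often lie near sites for the factor NF-Y, which binds CCAAT. The 250 bases before the RefSeq start site (GRCm38.p6, the same assembly as mm10) were on hand for 22 members. The element core TCACNCCA, sought on both strands, was in the windows of 3 of these 22, Srebf2, Hmgcs1 and Msmo1, against 4.20% of 27025 genes with such a window. The longer TCACNCCAC, which contains the core, was in that of Hmgcs1 alone, against 1.22% of genes. The letters CCAAT were in 20 of the 22, all but Scap and Acat2, against 37.5% of genes. Matches of this kind are descriptions of the letters and not sites. The windows of Srebf2 and Hmgcs1 are shown because they hold the core, and that of Mylip because this gene changed and its window has CCAAT but no core. Capitals mark the core (TCACNCCA) and CCAAT, which reads ATTGG on the other strand.
Srebf2, chr15:82147019-82147180, plus strand: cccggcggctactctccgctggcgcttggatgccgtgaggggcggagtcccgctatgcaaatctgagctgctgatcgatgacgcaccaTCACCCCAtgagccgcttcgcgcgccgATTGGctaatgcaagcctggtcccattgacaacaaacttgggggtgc
Hmgcs1, chr13:119690101-119690350, plus strand: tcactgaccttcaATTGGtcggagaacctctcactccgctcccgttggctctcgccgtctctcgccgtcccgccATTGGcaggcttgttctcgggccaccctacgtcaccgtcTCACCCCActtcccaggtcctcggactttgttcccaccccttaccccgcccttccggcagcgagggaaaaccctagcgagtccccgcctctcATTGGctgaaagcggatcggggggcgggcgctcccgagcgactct
Mylip, chr13:45389492-45389741, plus strand: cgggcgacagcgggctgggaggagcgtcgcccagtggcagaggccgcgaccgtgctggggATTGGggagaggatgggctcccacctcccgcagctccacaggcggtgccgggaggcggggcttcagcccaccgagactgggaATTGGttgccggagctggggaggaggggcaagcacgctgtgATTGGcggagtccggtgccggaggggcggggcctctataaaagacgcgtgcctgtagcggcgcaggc
The Srebf2 sequence stops at 162 bases because the first transcript of GENCODE starts there. The core began 162 bases before the RefSeq start in Srebf2, 137 bases before it in Hmgcs1 and 177 bases before it in Msmo1. The same windows held 1 CCAAT in Srebf2 and 3 each in Hmgcs1, Msmo1 and Mylip.

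The 12 libraries correlated with each other at 0.934 to 0.986 across genes, with the lowest mean value for HFHSD+CUR replicate 3 (0.952). Depth relative to NCD replicate 1, read from the size of the smallest FPKM steps, was 0.945 to 1.54, and HFHSD replicate 3 (1.48) and NCD replicate 3 (1.54) were the deepest. The numbers of fragments per gene are unknown. The 11 hepatocyte markers summed to 88269 to 98453 FPKM in HFHSD+CUR, 88239 to 106303 FPKM in HFHSD, 96075 to 108629 FPKM in NCD+CUR and 94018 to 103931 FPKM in NCD livers. Markers of some other cells differed between groups, while those of Kupffer cells and of T and NK cells overlapped among all groups. The 8 endothelial markers summed to 32.1, 38.6 and 77.6 FPKM in HFHSD+CUR, the last in replicate 3, and 27.5 to 43.1 FPKM in HFHSD livers. They summed to 62.4 to 83.4 FPKM in NCD+CUR and 66.8 to 70.6 FPKM in NCD livers. The 8 stellate cell markers summed to 58.5 to 80.3 FPKM in HFHSD and 90.5 to 115.9 FPKM in NCD livers. Most of each sum was Dcn, at 43.5 to 63.1 FPKM in HFHSD and 75.1 to 90.5 FPKM in NCD livers. Of the 8 log2 fold changes in HFHSD against NCD, 6 were below 0 and 2 above. The 6 cholangiocyte markers overlapped between these groups (37.0 to 55.8 and 35.8 to 190.4 FPKM). The 6 B cell markers summed to 11.5 to 13.3 FPKM in HFHSD+CUR, against 3.90 to 9.28 FPKM in HFHSD livers. The 4 adipocyte markers, of which Lep and Plin1 were at 0 in every library, summed to 1.38 to 57.4 FPKM in HFHSD and 0.051 to 0.57 FPKM in NCD livers. Nearly all of the HFHSD sum was Cfd, at 1.38 to 57.4 FPKM. Adipoq was at 0 to 0.070 FPKM in HFHSD and 0 to 0.051 FPKM in NCD livers. Of the RNAs without a poly(A) tail, 3 summed to 131, 3396 and 16623 FPKM in HFHSD+CUR, against 83.4 to 175.8 FPKM in HFHSD livers. The part of these differences in the results that follow was not tested.

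In HFHSD+CUR compared with HFHSD livers, Stard4 and Srebf2 fell and Soat2 rose, while none of the 19 enzymes changed. Thus 3 of the 27 members tested (11.1%) changed, against 30.3% of all genes tested. By direction, 1 member rose and 2 fell, against 13.1% and 17.2% of all genes. The median log2 fold change was 0.03 over the members and -0.03 over all genes. Npc1l1, at 0 to 0.025 FPKM in all livers, was not tested. The values of the 4 members that changed in any comparison are plotted by mouse.

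**Figure D1:**
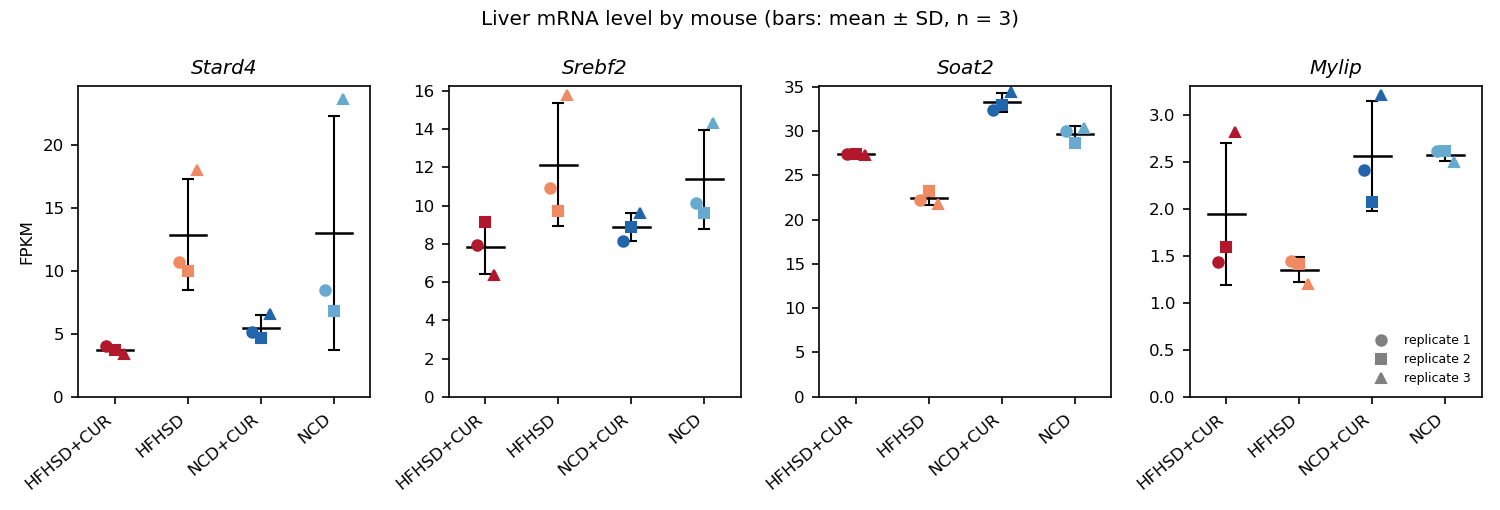
FPKM of Stard4, Srebf2, Soat2 and Mylip (y axes, each from 0) in each mouse of the 4 groups (x axis); points are mice, shaped by replicate number, and lines and bars are the mean and SD of 3 mice. Stard4 was at 3.39 to 4.03 FPKM in HFHSD+CUR and at 9.95 to 17.96 FPKM in HFHSD livers, and the 4 groups of Soat2 lay apart from one another.

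Stard4 encodes a cytosolic protein that moves cholesterol between membranes, and it lies on chromosome 18 from 33199355 to 33213862 (mm10, minus strand). Its level was 4.03, 3.71 and 3.39 FPKM in HFHSD+CUR livers, against 10.7, 9.95 and 18.0 FPKM in HFHSD livers. The groups did not overlap, and the lowest HFHSD mouse was above the highest HFHSD+CUR mouse. It fell by 1.72 ± 0.40 (SE) on the log2 scale in limma, with an adjusted p of 0.018 and a 95% interval of -2.59 to -0.84. It stayed past the threshold in all 29 alternative analyses, with log2 fold changes of -1.88 to -1.45 and adjusted p of 0.0050 to 0.077. On the normal diet, Stard4 was at 5.11, 4.64 and 6.60 FPKM in NCD+CUR livers, against 8.47, 6.84 and 23.6 FPKM in NCD livers. These groups did not overlap either, but the gap was narrow and NCD replicate 3 stood far above the other NCD mice. The log2 fold change was -1.03 ± 0.40 (SE) with an adjusted p of 0.30 in limma, and the adjusted p was 0.11 when blocked by replicate number within the diet. It passed the threshold without NCD replicate 2 (log2 fold change -1.38, adjusted p = 0.085, limma) and with array weights (-0.82, adjusted p = 0.043). The effects of curcumin on HFHSD and on NCD differed by -0.69 (95% interval -1.92 to 0.55, adjusted p = 1.00, limma).

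Of the regulators, Srebf2 (chromosome 15, 82147181 to 82205379, plus strand) was at 7.92, 9.16 and 6.36 FPKM in HFHSD+CUR livers, against 10.9, 9.72 and 15.8 FPKM in HFHSD livers. The groups did not overlap, although HFHSD+CUR replicate 2 and HFHSD replicate 2 were close to each other. It fell by 0.61 ± 0.20 (SE) on the log2 scale in limma (adjusted p = 0.046). It passed the threshold in 26 of 29 alternatives and missed it without HFHSD replicate 3 (-0.41, adjusted p = 0.18), without HFHSD+CUR replicate 3 (-0.48, adjusted p = 0.19), or without NCD replicate 3 and HFHSD replicate 3 together (-0.41, adjusted p = 0.11). In NCD+CUR livers it was at 8.13, 8.87 and 9.59 FPKM, against 10.1, 9.63 and 14.4 FPKM in NCD livers, again with no overlap but by a gap of less than 0.1 FPKM. This difference did not pass in limma (log2 fold change -0.34, adjusted p = 0.45).

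The other regulators did not pass the test in any of the comparisons. Scap, the escort of SREBP2, was at 23.7, 24.4 and 24.4 FPKM in HFHSD+CUR and 23.7, 25.8 and 37.2 FPKM in HFHSD livers. Insig1 encodes a retention protein and is itself an SREBP2 target. It was at 126.3, 109.6 and 123.7 FPKM in HFHSD+CUR and 113.2, 88.9 and 145.5 FPKM in HFHSD livers, against 141.8, 166.6 and 166.1 FPKM in NCD+CUR and 112.0, 174.0 and 191.0 FPKM in NCD livers. Its HFHSD and NCD groups overlapped, and the log2 fold change between them was -0.45 (adjusted p = 0.26, limma). Insig2, a second retention protein that is not under SREBP control in the same way, was at 23.7, 22.9 and 14.5 FPKM in HFHSD+CUR and 24.1, 28.5 and 21.6 FPKM in HFHSD livers (log2 fold change -0.30). Blocked by replicate number within the diet its adjusted p was 0.061 in limma, so that it passed there and in none of the other 28 alternatives.

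Soat2, which esterifies cholesterol in hepatocytes for storage and for lipoproteins, lies on chromosome 15 from 102150526 to 102163469 (plus strand). It was at 27.5, 27.4 and 27.3 FPKM in HFHSD+CUR and 22.2, 23.2 and 21.7 FPKM in HFHSD livers, against 32.4, 33.0 and 34.5 FPKM in NCD+CUR and 30.1, 28.6 and 30.4 FPKM in NCD livers. No pair of groups overlapped, and the order was NCD+CUR, NCD, HFHSD+CUR and HFHSD from high to low. Groups apart in all pairs were found for 14 of the 10545 genes tested (0.133%), and in this order for 2 of them (0.019%). Soat2 also varied little between mice of a group, with an SD of 0.04 on the log2 scale, at or below which only 3 tested genes lay, itself included. It rose in HFHSD+CUR against HFHSD by a log2 fold change of 0.29 ± 0.09 (SE) and fell in HFHSD against NCD by 0.40 ± 0.09 (limma, adjusted p = 0.047 and 0.050). It did not pass in NCD+CUR against NCD (0.16, adjusted p = 0.44) or in HFHSD+CUR against NCD+CUR (-0.28, adjusted p = 0.15) in limma, which draws so small a variance towards that of other genes. The rise in HFHSD+CUR against HFHSD was lost in 6 of 29 alternatives, among them removal of GC content and length trends (0.20, adjusted p = 0.16), the libraries of the compared groups alone (adjusted p = 0.1002), and leaving out HFHSD replicate 1 (adjusted p = 0.11), HFHSD replicate 3 (0.14) or HFHSD+CUR replicate 3 (0.10) in limma.

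Mylip, also called Idol, encodes an E3 ubiquitin ligase that marks lipoprotein receptors for degradation and is induced by the sterol sensor LXR. It was at 1.44, 1.42 and 1.196 FPKM in HFHSD livers, against 2.62, 2.61 and 2.49 FPKM in NCD livers. All HFHSD mice were below all NCD mice, and it fell by 0.88 ± 0.23 (SE) on the log2 scale in limma (adjusted p = 0.067). Of HFHSD+CUR livers, replicate 3 was at 2.81 FPKM and the others at 1.43 and 1.59 FPKM, and NCD+CUR livers were at 2.41, 2.07 and 3.20 FPKM. Neither of these groups differed past the threshold from its comparisons. Soat2 and Mylip were the only members that changed in HFHSD against NCD, 2 of 27 (7.41%) against 4.61% of all genes tested. Both fell, against 1.87% of all genes, and no other member was without overlap (2 of 27 lower, against 10.3%). With one of NCD replicates 1 and 2 or HFHSD replicates 1 to 3 left out, neither gene passed (limma, adjusted p of 0.13 to 0.17 for Soat2 and 0.13 to 0.21 for Mylip), and without NCD replicate 3 the number of members past the threshold was 4 of 27, against 16.6% of all genes. These 4 were Soat2, Mylip, Sc5d and Stard4, the last at 0.70 with an adjusted p of 0.082. In HFHSD against NCD livers 5 of 8 endothelial and 2 of 8 stellate cell markers also fell, against 1.87% of all genes. Their part in the falls of Soat2 and Mylip was not tested.

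Npc1, which exports cholesterol from late endosomes, was at 27.4, 36.0 and 26.9 FPKM in HFHSD+CUR livers, against 33.9, 38.4 and 39.0 FPKM in HFHSD livers. Replicate 2 of HFHSD+CUR lay within the HFHSD range. The log2 fold change was -0.31 ± 0.13 (SE), just short of the threshold (limma, adjusted p = 0.104). Blocked by replicate number within the diet it passed (adjusted p = 0.044), and without HFHSD+CUR replicate 2 as well (-0.45, adjusted p = 0.025, limma). Under that block, 6 of 27 members changed in HFHSD+CUR against HFHSD rather than 3, against 45.7% of all genes under the same block, with Insig2, Hsd17b7 and Npc1 added to those that fell. Npc1l1 takes up cholesterol in the intestine, and in mouse liver its values of 0 to 0.025 FPKM allowed no comparison.

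None of the enzymes from acetyl-CoA to the prenyl diphosphates passed the test in any of the comparisons. Only Ggps1, between NCD+CUR and NCD, and Pmvk, between HFHSD+CUR and NCD+CUR, had groups without overlap. Hmgcs1, HMG-CoA synthase, was at 81.4, 142.9 and 101.8 FPKM in HFHSD+CUR and 79.1, 79.2 and 140.3 FPKM in HFHSD livers, against 78.7, 118.9 and 143.7 FPKM in NCD+CUR and 58.8, 130.7 and 158.5 FPKM in NCD livers. Fdps, which makes farnesyl diphosphate, was at 253.6, 290.0 and 294.3 FPKM in HFHSD+CUR and 211.4, 188.9 and 385.3 FPKM in HFHSD livers, against 196.2, 295.0 and 440.5 FPKM in NCD+CUR and 117.6, 317.3 and 426.3 FPKM in NCD livers. In both genes all 4 groups overlapped, and the mice of one group differed more than the group means did. Mvd, the last step to isopentenyl diphosphate, was at 20.4, 22.6 and 20.8 FPKM in HFHSD+CUR and 13.8, 9.87 and 22.1 FPKM in HFHSD livers. Its log2 fold change of 0.55 was the highest of the members in this comparison, with a 95% interval of -0.48 to 1.58. Ggps1, which makes the geranylgeranyl diphosphate used for protein prenylation, kept a narrow spread on the normal diet. It was at 2.89, 2.93 and 2.80 FPKM in NCD+CUR livers, against 2.27, 2.30 and 2.32 FPKM in NCD livers, with no overlap, a log2 fold change of 0.31 and an adjusted p of 0.35 in limma. In HFHSD livers it was at 3.10, 2.23 and 2.48 FPKM, a range that spans both of these groups, and in HFHSD+CUR livers at 2.57, 2.59 and 3.11 FPKM. Its exons overlap those of Arid4b on the other strand, and whether strand was used in counting is not given in the sources used here. Mvk (mevalonate kinase) ranged from 12.5 to 23.4 FPKM over the 12 livers and Pmvk (phosphomevalonate kinase) from 36.7 to 100.2 FPKM. Idi1 (isopentenyl diphosphate isomerase) ranged from 50.8 to 129.7 FPKM. Acat2, the cytosolic thiolase at the head of the pathway, ranged from 22.4 to 61.9 FPKM and is uncertain because of its near-identical neighbour Acat3.

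Of the enzymes from squalene to cholesterol none passed the test either. Hsd17b7, a sterol ketoreductase, was at 8.79, 11.5 and 8.27 FPKM in HFHSD+CUR livers, against 12.01, 12.02 and 19.96 FPKM in HFHSD livers. It was the only enzyme whose HFHSD+CUR and HFHSD groups did not overlap. Its log2 fold change was -0.59 ± 0.28 (SE, 95% interval -1.196 to 0.013, adjusted p = 0.15, limma), and the adjusted p was 0.052 when blocked by replicate number within the diet. It passed in 6 of 29 alternatives. Over the members, 1 did not overlap and was higher and 3 did not overlap and were lower in HFHSD+CUR, together 4 of 27, against 40.7% of all genes tested. Sqle, squalene epoxidase, was at 31.4, 33.8 and 32.6 FPKM in HFHSD+CUR and 35.4, 22.2 and 58.0 FPKM in HFHSD livers. Nsdhl, a sterol dehydrogenase, was at 31.3, 60.3 and 51.1 FPKM in HFHSD+CUR and 33.1, 45.4 and 57.2 FPKM in HFHSD livers, against 24.2, 38.4 and 61.2 FPKM in NCD+CUR and 16.9, 37.1 and 46.6 FPKM in NCD livers. Ebp, a sterol isomerase, was the steadiest of this branch, at 160.7, 186.7 and 165.7 FPKM in HFHSD+CUR and 153.8, 177.3 and 179.3 FPKM in HFHSD livers (log2 fold change 0.01, 95% interval -0.27 to 0.29).

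For the remaining enzymes of this branch the ranges over the 12 livers were as follows. Fdft1 (squalene synthase) ranged from 52.0 to 105.8 FPKM and Lss (lanosterol synthase) from 12.004 to 35.4 FPKM. Cyp51 (lanosterol demethylase) ranged from 23.6 to 54.6 FPKM, and the reductase Tm7sf2 from 39.4 to 117.6 FPKM. Msmo1 (sterol methyl oxidase) ranged from 96.8 to 201.9 FPKM, the desaturase Sc5d from 160.0 to 331.4 FPKM, and Dhcr7 (the reductase of the last step of one branch) from 31.6 to 67.8 FPKM. Exons of Fdft1, Lss, Cyp51 and Tm7sf2 overlap those of another gene in the table (Ctsb, 4930483K19Rik, Akap9 and Vps51), which could shift their values.

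**Figure D2:**
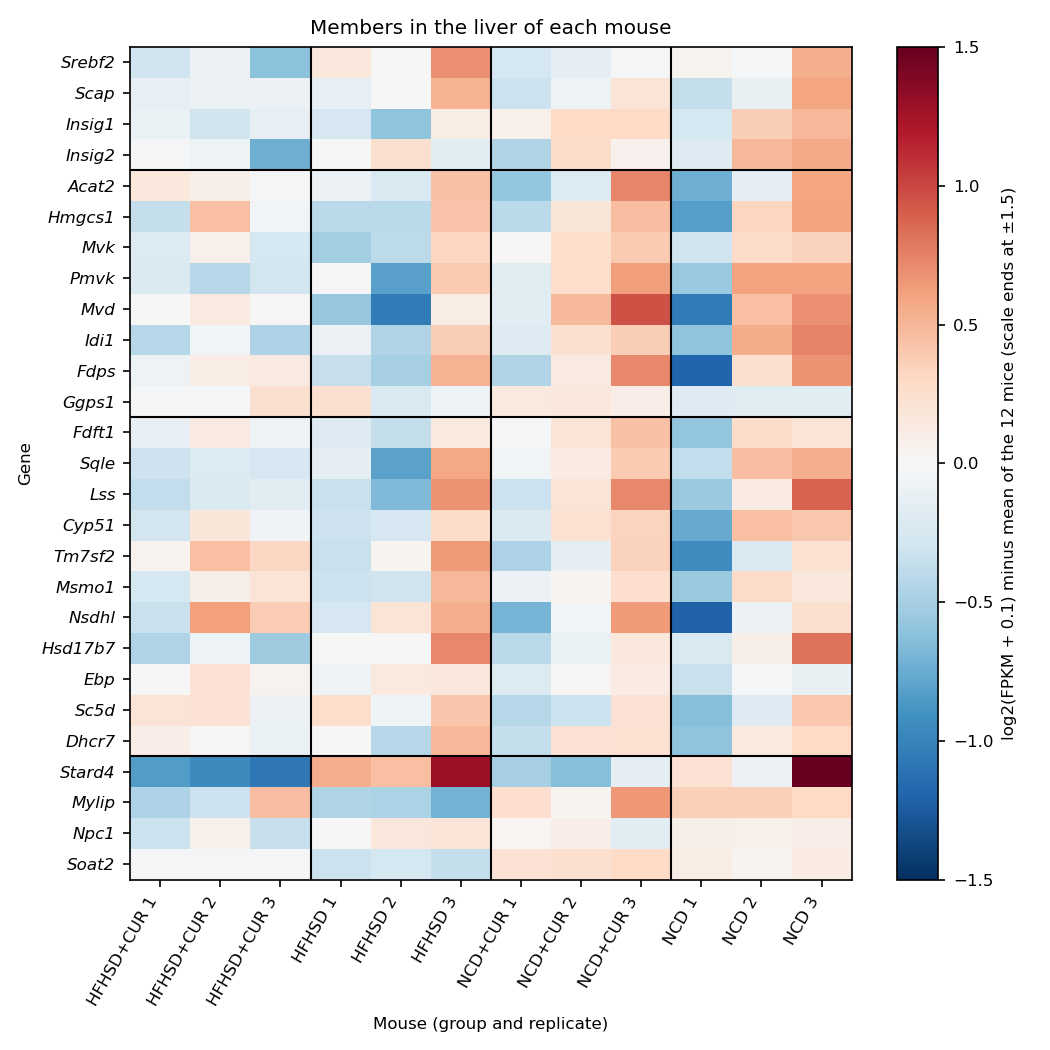
Each cell gives log2(FPKM + 0.1) of a member (rows, grouped by role) in a mouse (columns, by group and replicate) minus the mean of the 12 mice, red for higher and blue for lower, with colours ending at ±1.5. Enzyme rows change colour together from mouse to mouse within a group, and the columns of NCD 1 (blue) and of NCD 3, NCD+CUR 3 and HFHSD 3 (red) stand out.

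The largest differences among the enzymes were between mice of one group. NCD replicate 1 was the lowest of its group in 19 of 19 enzymes, against 25.2% of all genes tested, and NCD replicate 3 the highest in 15, against 39.1%. NCD+CUR replicate 1 was the lowest in 18 and NCD+CUR replicate 3 the highest in 18 (33.0% and 38.5% of all genes). HFHSD replicate 3 was the highest in 18 (37.1%). In HFHSD+CUR no mouse stood out so far, and replicate 2 was the highest in 12 (35.6%). The enzymes' shared deviations count as a single observation for each mouse and not as 19.

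Summed over the 19 enzymes, the level was 1416, 1672 and 1504 FPKM in HFHSD+CUR and 1361, 1249 and 2008 FPKM in HFHSD livers. It was 1210, 1550 and 2013 FPKM in NCD+CUR and 921, 1687 and 2015 FPKM in NCD livers. The mean was 1531 ± 130 FPKM in HFHSD+CUR and 1539 ± 409 FPKM in HFHSD livers, and 1591 ± 403 FPKM in NCD+CUR and 1541 ± 562 FPKM in NCD livers (SD, n = 3 each). The highest mouse of NCD was at 2.19 times its lowest, and that of HFHSD+CUR at 1.18 times. NCD replicate 3 and NCD+CUR replicate 3 were the mice labelled 107 weeks, and NCD replicate 3 and HFHSD replicate 3 had the deepest libraries. HFHSD replicate 3 was labelled 99 weeks, and NCD+CUR replicate 3 had a relative depth of 0.949. The part of age or depth in the summed levels was not tested.

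**Figure D3:**
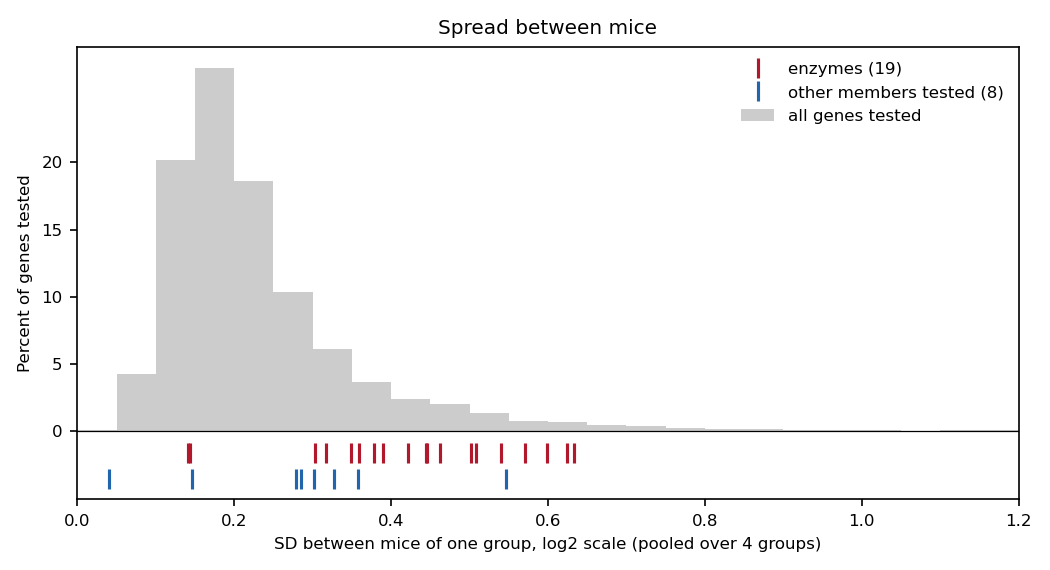
Histogram of the SD between mice of one group (x axis, log2 scale, pooled over the 4 groups) for all 10545 genes tested (grey, y axis in percent of genes; 67 genes lie beyond the axis), with a tick for each enzyme (red) and each other member tested (blue). Most enzymes lie to the right of the bulk of genes, with a median of 0.44 against 0.20, and the lone tick at 0.04 is Soat2.

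Pooled over the 4 groups, the SD between mice of one group had a median of 0.44 on the log2 scale over the enzymes. It was 0.20 over all genes tested (0.18 over genes that averaged 5 FPKM or more). Fdps (0.63), Mvd (0.62) and Nsdhl (0.60) spread most, at the 97.3, 97.1 and 96.8 percentiles of genes tested. Ggps1 and Ebp (0.14 each) spread least, at the 19.6 and 21.0 percentiles. In each comparison the difference between group means was smaller than the wider of the groups' ranges in 19 of 19 enzymes, except in NCD+CUR against NCD, where it was so in 18. Over all genes tested this share was 71.9% for HFHSD+CUR against HFHSD, 89.6% for NCD+CUR against NCD, 87.3% for HFHSD against NCD and 87.7% for HFHSD+CUR against NCD+CUR. The median SE of the log2 fold change was 0.32 for the enzymes and 0.16 over all genes. Blocked by replicate number within the diet, these medians were 0.17 for the enzymes and 0.13 over all genes, from a residual spread pooled over both diets. The enzymes' mean log2 deviation from the mean of the 12 libraries was -0.64, 0.18 and 0.43 in NCD replicates 1 to 3. It was -0.27, 0.10 and 0.43 in NCD+CUR, -0.18, -0.34 and 0.40 in HFHSD and -0.15, 0.10 and -0.05 in HFHSD+CUR. Same-numbered mice thus ran in the same order on the normal diet but not on the high-fat high-sugar diet. Under this block Hsd17b7 was the one enzyme that passed in HFHSD+CUR against HFHSD, and none passed in NCD+CUR against NCD.

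**Figure D4:**
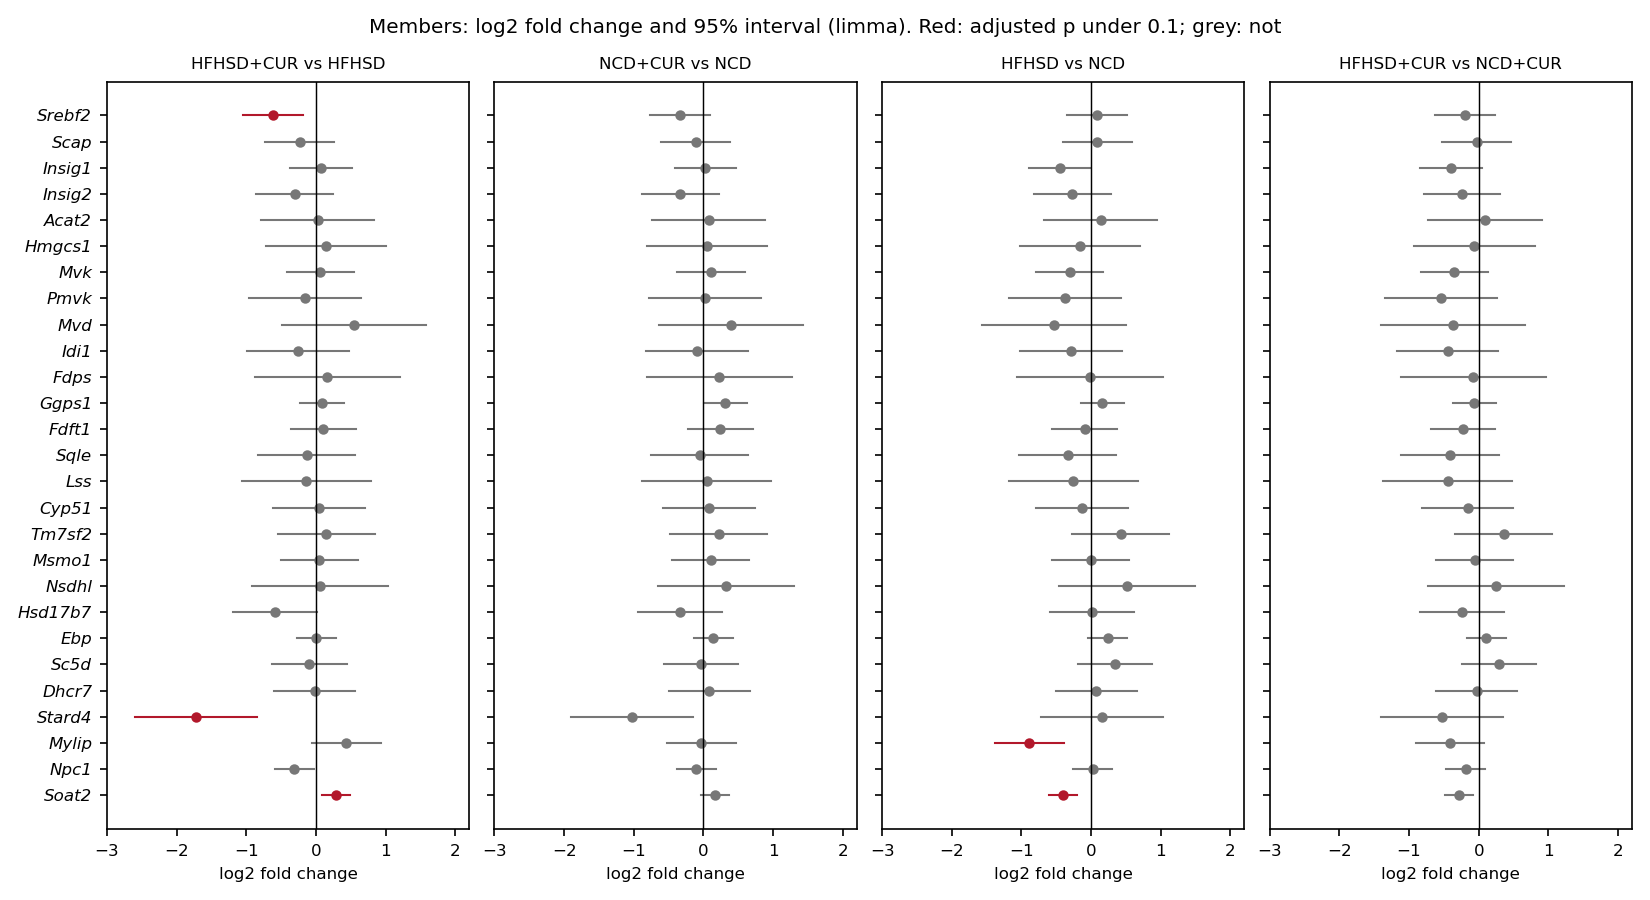
Log2 fold change (x axis) with its 95% interval in limma for the 27 members tested (rows) in each of the 4 comparisons (panels); red marks an adjusted p under 0.1. Red points are Srebf2, Stard4 and Soat2 in HFHSD+CUR against HFHSD, and Mylip and Soat2 in HFHSD against NCD, and the intervals of all 19 enzymes in HFHSD+CUR against HFHSD include 0.

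In NCD+CUR against NCD livers no member and no gene of the 10545 passed the threshold in limma (0%), while 1476 genes (14.0%) and 2 members had an unadjusted p under 0.05, with Ggps1 the higher and Stard4 the lower. Blocked by replicate number within the diet, 860 genes (8.16%) and none of the members passed. Members without overlap were Ggps1 and Soat2, which were higher, and Stard4 and Srebf2, which were lower, 4 of 27 against 19.6% of genes. Array weights, which lower the weight of libraries that deviate, gave 6 of 27 members, against 33.2% of all genes: Mvd, Ggps1, Fdft1, Cyp51 and Ebp rose and Stard4 fell.

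In HFHSD+CUR against NCD+CUR livers no member passed in limma, against 3.61% of all genes, and Soat2 was the only one with an unadjusted p under 0.05 (17.5% of all genes). With array weights Soat2 passed (adjusted p = 0.075), as did 12.9% of all genes. Log2 fold changes were above 0 in 5 of 27 members, against 50.8% of all genes, with a median of -0.19 (0.01 over all genes). The enzymes among them deviated together from mouse to mouse, so these signs were not independent. NCD+CUR replicate 3 was the highest of its group in 18 of 19 enzymes. Members without overlap were Insig1, Pmvk, Sqle, Stard4 and Soat2, all lower in HFHSD+CUR, 5 of 27 against 10.6% of genes in that direction. In HFHSD against NCD the median of the members was -0.02 (0.03 over all genes). The difference between the effects of curcumin on HFHSD and on NCD passed in no member and no gene (0%) in limma, and 145 genes (1.38%) and 0 members had an unadjusted p under 0.05. That difference was -0.28 for Srebf2 (95% interval -0.89 to 0.33) and 0.13 for Soat2 (95% interval -0.16 to 0.41).

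Genes that handle SREBP in the endoplasmic reticulum and Golgi were also measured. Of 19 such genes, 8 fell in HFHSD+CUR against HFHSD and none rose, against 17.2% of all genes that fell. Their median log2 fold change was -0.37, against -0.03 over all genes. All 19 were below 0, against 5562 of the 10545 genes tested. Sec23a, a coat protein of the vesicles that leave the endoplasmic reticulum, was at 8.91 ± 2.06 FPKM in HFHSD+CUR and 17.4 ± 1.5 FPKM in HFHSD livers (SD, n = 3 each), and fell by 0.98 on the log2 scale in limma (adjusted p = 0.0083). Mbtps2, the site-2 protease that frees SREBP, was at 0.99 ± 0.078 FPKM in HFHSD+CUR and 1.61 ± 0.046 FPKM in HFHSD livers (log2 fold change -0.65, adjusted p = 0.021, limma). Faf2, which takes part in degradation of proteins of the endoplasmic reticulum, was at 7.94 ± 0.41 FPKM in HFHSD+CUR and 10.7 ± 0.21 FPKM in HFHSD livers (-0.42, adjusted p = 0.021, limma). On the normal diet all 19 of these log2 fold changes were below 0 as well, against 5427 of the 10545 genes tested. Their median was -0.20 (-0.01 over all genes), and none passed. Pgrmc1, a membrane protein that binds heme, was at 648 ± 62.6 FPKM in HFHSD and 439 ± 43.9 FPKM in NCD livers, and was the only gene of this list to rise in HFHSD against NCD (0.56, adjusted p = 0.050, limma).

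Of 8 other reported SREBP2 targets, 1 rose and none fell in HFHSD+CUR against HFHSD, 12.5% against 30.3% of all genes tested that changed. It was Pcyt2, of phosphatidylethanolamine synthesis, at 446 ± 36.8 FPKM in HFHSD+CUR and 303 ± 11 FPKM in HFHSD livers (log2 fold change 0.55, adjusted p = 0.021, limma). Of 10 LXR targets and genes of sterol efflux, Apoa1 rose (0.39), Abca1 (-0.54) and Scarb1 (-0.51) fell, and 7 did not pass, so that 30.0% changed, near the share of all genes. Abca1, which loads cholesterol onto apolipoprotein A-I, was at 9.55 ± 0.098 FPKM in HFHSD+CUR and 14.0 ± 1.10 FPKM in HFHSD livers (adjusted p = 0.031, limma). Of 14 genes of fatty acid synthesis, Mlxipl rose (0.58), Fads2 fell (-1.28) and 12 did not pass, in a branch driven largely by SREBP1c, so that 14.3% changed. The lists were chosen with earlier results of these data known, and their counts are descriptions.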

How the data were processed

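The authors aligned the paired reads to mm10 with TopHat2 2.0.13 and computed FPKM per gene and library with Cuffdiff 2.2.1, per the labels, and these deposited FPKM values were the only ones used. FPKM carries no fragment counts. The authors' tables of fold changes, p-values, Gene Ontology terms and pathways were not used. Columns of other samples: 0.

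Values were taken as log2(FPKM + 0.1). Genes that averaged 1 FPKM or more (10545 of 23997) were fitted with limma 3.58.1 (R 4.3.3) as 4 groups, with trended and robust moderation. The threshold was an adjusted p under 0.1. All members are named, and at most 3 genes of smallest p from each other list. Members and lists were chosen with earlier results of these data known. The fit was tested on simulated data.

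Deviations from group means of same-numbered libraries correlated at 0.156 to 0.350 between HFHSD+CUR and HFHSD. Between NCD+CUR and NCD they correlated at 0.300 to 0.527, and all of these values were over 0.1. Same-numbered libraries were therefore paired on either diet in the alternatives blocked by replicate number within the diet. The main fit had no replicate block, so values given without mention of a block are unpaired. Between HFHSD and NCD (0.0034 to 0.236) and between HFHSD+CUR and NCD+CUR (-0.072 to 0.099) the correlations were not all over 0.1. Alternatives were 2 pseudocounts, 2 filters, 2 scalings, removal of GC content and length trends, blocks, age as a covariate, array weights, plain moderation, the compared groups alone, an adjusted p under 0.05 and leaving out each library. Leaving out both libraries of lowest FPKM per fragment, or both mice labelled 107 weeks, was added after the data were seen. Sequences came from RefSeq and gene positions from GENCODE vM21.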

Additional observations from a re-analysis of the deposited data

How the results depend on the processing

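Without a replicate block the spread between mice limited what could be detected in the enzymes, and fragment counts per gene are unknown. For single members, 3355 values kept their direction and side of the threshold, 24 lost the call and 32 gained it, these with their direction kept. Another 278 changed sign, with neither the value nor the one it was set against past the threshold. Stard4 in HFHSD against NCD, which passed in 2 of 26 alternatives, ran from -0.19 to 0.70.

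For HFHSD+CUR against HFHSD, 3 members and 3196 genes changed. With a replicate block within the diets these were 6 and 4815, and with a replicate block over all 12 libraries 5 and 3528. The block within the diets with GC and length trends removed gave 5 members (Srebf2, Scap and Stard4 lower, Ggps1 and Soat2 higher) and 4591 genes, and age as a covariate 5 and 3724. Without NCD replicate 3 and HFHSD replicate 3, 1 member and 2094 genes were left, and an adjusted p under 0.05 gave 2011 genes. Leaving out 1 library gave 1 to 4 members and 1227 to 3493 genes, lowest without HFHSD+CUR replicate 3.

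For NCD+CUR against NCD, 0 members and 0 genes changed, against 860 genes with the replicate block within each diet, 199 genes with that block and GC and length trends removed, and 6 members and 3498 genes with array weights. Leaving out 1 library gave 0 to 1 members and 0 to 894 genes, highest without NCD replicate 2.

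For HFHSD against NCD, 2 members and 486 genes changed. The counts were 1 member and 184 genes at an adjusted p under 0.05, 1 member and 341 genes with no filter, 1 member and 409 genes with a minimum mean of 5 FPKM, 6 members and 3369 genes with array weights, 1 member and 270 genes in the compared groups alone, 0 members and 893 genes without NCD replicate 3 and HFHSD replicate 3, and 4 members and 1822 genes without NCD replicate 3 and NCD+CUR replicate 3. The block over all 12 libraries gave 876 genes. Leaving out 1 library gave 0 to 4 members and 55 to 1747 genes, highest without NCD replicate 3.

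For HFHSD+CUR against NCD+CUR, 0 members and 381 genes changed, against 1 member and 1359 genes with array weights, and 56 genes at an adjusted p under 0.05, 211 with no filter, 798 with the block over all 12 libraries, 613 with GC and length trends removed, 1041 without NCD replicate 3 and NCD+CUR replicate 3 and 181 in the compared groups alone. Leaving out 1 library gave 0 members and 5 to 631 genes. The difference between the effects of curcumin gave 0 to 1 genes when 1 library was left out. The cause of these shifts was not tested.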

Other observations

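Genes that use the products of the pathway were also measured. Of 13 genes that use prenyl groups, 4 fell and none rose in HFHSD+CUR against HFHSD, 30.8% against 30.3% of all genes tested, with a median log2 fold change of -0.11 (-0.03 over all genes). Pdss2, which builds the side chain of coenzyme Q, was at 1.68 ± 0.18 FPKM in HFHSD+CUR and 3.97 ± 1.00 FPKM in HFHSD livers (SD, n = 3 each; log2 fold change -1.17, adjusted p = 0.0083, limma). Pggt1b, the catalytic subunit of a geranylgeranyl transferase, was at 0.88 ± 0.24 FPKM in HFHSD+CUR and 1.82 ± 0.36 FPKM in HFHSD livers (-0.98, adjusted p = 0.027, limma). Icmt, which methylates prenylated proteins, had a log2 fold change of -0.52. Of 14 genes of bile acid synthesis, 5 fell and none rose, 35.7% against the same 30.3%, with a median of -0.36. Acox2 (-0.50), Scp2 (-0.57) and Hsd17b4 (-0.52), all of peroxisomal side-chain shortening, had the smallest p.

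Of 11 tested genes of sterol trafficking, 2 rose and 3 fell in HFHSD+CUR against HFHSD, where 13.1% of all genes tested rose and 17.2% fell. Gramd1a, which moves cholesterol from the plasma membrane to the endoplasmic reticulum, was at 9.72 ± 2.23 FPKM in HFHSD+CUR and 5.35 ± 0.21 FPKM in HFHSD livers (0.83, adjusted p = 0.013, limma), and its relative Gramd1c had a log2 fold change of 0.67. Lipa, the lysosomal acid lipase that frees cholesterol from its esters, was at 43.4 ± 6.64 FPKM in HFHSD+CUR and 74.1 ± 4.81 FPKM in HFHSD livers (-0.78, adjusted p = 0.0084, limma). In HFHSD against NCD, Akr1c6 of bile acid synthesis (0.65, adjusted p = 0.081) and Stard5 of sterol trafficking (0.44, adjusted p = 0.088) rose in limma.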
